A study of Mus musculus with 16 samples.

Results

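Early life stress in preadipocytes of mice on a high-fat diet was examined in 8 bulk RNA sequencing libraries, 4 labelled control and 4 labelled stress, out of 16 in the series. They were chosen by their labels for fraction and diet, and every gene in them was compared. All were from female C57BL/6 mice, an inbred laboratory strain, and from the white fat around the gonads. The stress mice had maternal separation and early weaning: as pups they were taken from the dam each day from postnatal day 2 to 16 and weaned on day 17. Control litters were left alone until weaning on day 21. The labels leave out adult age, time on the diet, the antibodies of the magnetic sort and whether each library is a separate animal. The p-values therefore measure the spread between these libraries only, and that spread may be technical. The other libraries were 6 of mature adipocytes on the same diet (3 control, 3 stress) and 2 of preadipocytes on a low-fat diet (1 control, 1 stress). The series title speaks of single cells, but each library is a bulk pool of total RNA.

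Preadipocytes are fibroblast-like cells of the stromal vascular fraction, what remains of fat tissue after collagenase digestion and removal of the floating adipocytes. Stem-like interstitial progenitors, committed preadipocytes and anti-adipogenic or inflammatory stromal cells are among their known states. Glucocorticoids, insulin and the nuclear receptor Pparg promote their conversion to adipocytes, whereas Wnt, Hedgehog, Notch and TGF-beta signals and the surface protein Dlk1 are known to restrain it. The same fraction holds macrophages, endothelial, mural, mesothelial and blood cells.

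Expression is given as CPM, read counts scaled to a common library size over all 16 libraries, always for libraries 1 to 4 in that order, which is an order of names only. The 8 libraries held 18881763 to 21850252 counts each. Per unit length, the deposited FPKM values placed Gsn, a secreted and cytoplasmic actin-severing protein, first among protein-coding nuclear genes in every one of these libraries. The highest-ranked 10 genes by mean FPKM shared 7 members between the groups, among them complement C3 and Cd74, the MHC class II invariant chain. Progenitor markers were present throughout: FPKM ran from 36.9 to 81.7 for Pdgfra, 59.98 to 129 for Cd34, 257 to 443 for Ly6a and 506 to 1799 for Dcn, the matrix proteoglycan decorin. Markers of other cells were present too: Cd68 of macrophages at 60.3 to 468 FPKM, Cdh5 of endothelium at 3.44 to 41.4 and Cd79a of B cells at 6.67 to 24.4. The adipocyte hormone Adipoq stood at 0.788 to 34.4. The libraries thus held markers of several cell types beside those of progenitors, and in such mixtures fewer cells of a type and less RNA per cell cannot be told apart.

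Control libraries 1 and 3 stood apart by being nearly alike. Their biological coefficient of variation (BCV, the spread beyond counting error as a share of the mean) was 0.0450, against 0.313 to 0.408 for the other 5 control pairs. Even so, 21.5% of genes differed between them at an unadjusted p below 0.05 in a binomial test, so they are not copies of one table. Sampling noise alone would give a share of up to about 0.05, and the other control pairs had 55.8% to 62.2%. Because they may not be separate samples, each result is also given with their counts summed into 1 library, and their mean enters each control mean ± SD as 1 value (n = 3 control, n = 4 stress). Within the stress group, libraries 3 and 4 were the closest, with a BCV of 0.206, and the 6 stress pairs reached 0.527. The 16 pairs of 1 control and 1 stress library ranged from 0.212 to 0.483, inside the range of pairs within the groups.

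The first principal component of log2 CPM held 39.8% of the variance and set stress libraries 3 and 4, at 73.4 and 78.6, against control 4 at 19.1 and the other 5 libraries at -26.5 to -41.0. The second component, 28.1%, ran from control libraries 1 and 3, at 53.4 and 51.7, to stress library 2 at -76.7. Neither divided control from stress, as the plot of the first and second components shows.

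**Figure D1:**
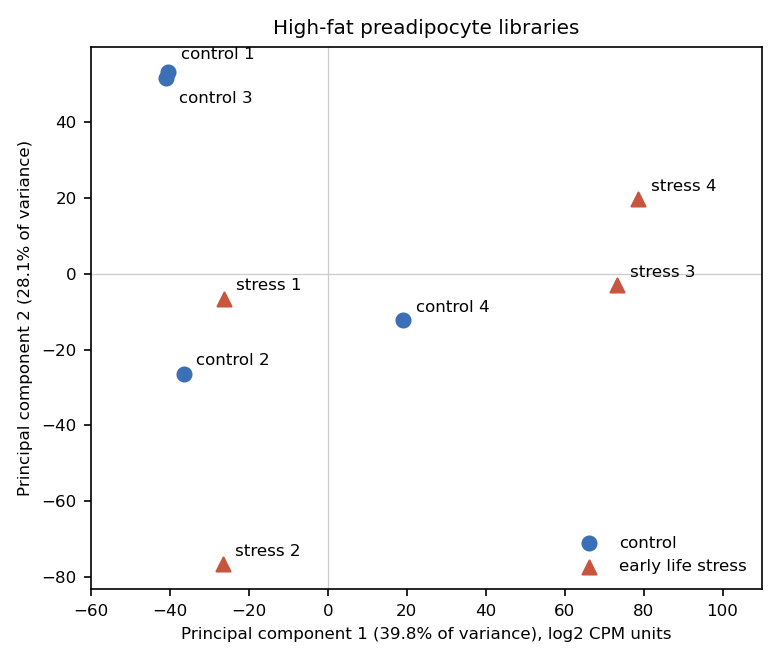
Principal component 1 (x axis, 39.8% of variance) against component 2 (y axis, 28.1%) of log2 CPM over 16810 genes, 1 point per library (circles, control; triangles, stress). Control 1 and 3 coincide at the upper left, stress 3 and 4 lie together at the right, and stress 1 lies nearest to control 2.

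Levels of cell type markers moved with these positions. Lipid-associated macrophage genes, a set including Gpnmb, Trem2, Cd63 and Atp6v0d2 that macrophages of obese fat are known for, summed to 7303, 5804, 7038 and 8231 CPM in control libraries 1 to 4 and to 6864, 6845, 18507 and 20289 in stress libraries 1 to 4. Stress libraries 3 and 4 were the high ones, while stress 1 and 2 lay inside the control range. Gpnmb, a macrophage transmembrane glycoprotein, showed this at 295, 188, 292 and 388 CPM in control and 324, 388, 1402 and 1356 in stress. All 20 general macrophage markers tested, such as Cd68 and Adgre1, were detected in every library, and their sum was 6119, 2217, 5877 and 4619 in control and 4219.9, 1881, 9647 and 10904 in stress.

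Urothelial and epithelial markers behaved otherwise, with sums of 1447, 43.4, 1419 and 22.9 CPM in control and 50.6, 26.3, 3.304 and 40.5 in stress. Only the nearly alike control libraries 1 and 3 were high. Upk1a, a uroplakin of the bladder lining, stood at 139, 0.702, 143 and 1.33 CPM in control and 2.46, 1.04, 0.395 and 0.304 in stress, and 7 of 14 listed markers, Krt5, Krt14, Krt15, Upk2, Upk3a, Trp63 and Esrp1, were at 0 in at least 1 library. Endothelial markers summed to 1289, 603, 1254 and 703 CPM in control and 727, 477, 396 and 387 in stress, again highest in control 1 and 3. Mesothelial markers, from the lining of the abdominal cavity, summed to 1425, 1006, 1405 and 249.5 CPM in control and 659.9, 724, 173 and 139.8 in stress, low in control 4 and stress 3 and 4. Globin-led erythroid markers were 1478, 1664, 1573 and 2416 in control and 2463, 270.1, 827 and 504 in stress. Ovarian steroidogenic Cyp11a1 and the inhibin subunit Inha were high in control library 2 alone, at 1.87, 24.3, 1.35 and 1.33 CPM and 0.876, 35.8, 1.14 and 0.8404 CPM over the 4 controls. The part of these cell types in the gene results that follow was not tested. Values given without some libraries show only how far a result rests on those libraries. They cannot single out a cell type, since several marker levels moved together in them.

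**Figure D2:**
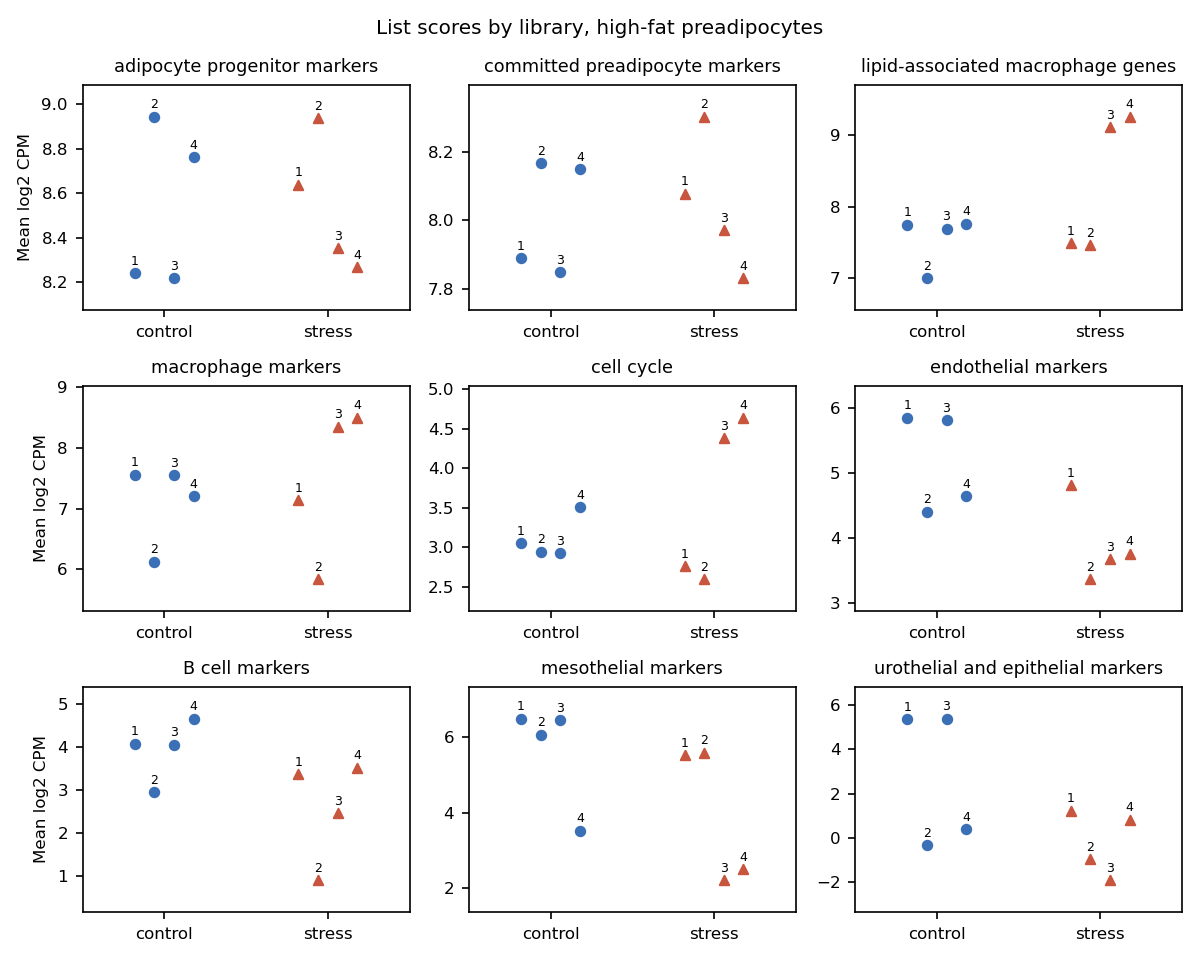
Mean log2 CPM (y axis) of 9 gene lists in each library (points numbered by library; circles, control; triangles, stress), with y axes that differ between panels. Macrophage, lipid-associated macrophage and cell cycle scores are high in stress 3 and 4, urothelial and endothelial scores are high in control 1 and 3, and progenitor scores of the groups overlap.

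The main question was whether any gene differed between stress and control beyond the spread between libraries. In edgeR's quasi-likelihood test, 0 of 16810 genes (0%) passed an adjusted p of 0.05. The smallest adjusted p was 0.800, and 0.973 with control 1 and 3 as 1 library. At an unadjusted p below 0.05, 322 genes lay higher under stress (1.92% of those tested) and 688 lay lower (4.09%). With the pair as 1 library these were 177 (1.03% of 17129) and 319 (1.86%). The CPM of the groups did not overlap for 205 genes higher under stress (1.22%) and 234 lower (1.39%). Scaling by DESeq2-type size factors turned that split to 279 higher and 212 lower, and the deposited FPKM values gave the same counts. Groups of 4 libraries can also separate by chance, and the share of genes that would do so was not computed. Over all genes tested the median log2 fold change was 0.01 and 51.0% lay higher.

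The genes described below were ranked by the larger of their unadjusted p-values with 8 libraries and with the pair as 1. They are therefore the extremes of a comparison with no gene past the adjusted threshold, and their values describe these libraries. Since ranking used the same test on the same libraries, no support is read from their p-values or from groups that do not overlap. Of the 15 highest-ranked lower genes, 14 had groups that did not overlap, and this held for all 15 of the higher genes.

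Among genes lower under stress the first was Scube1 (ENSMUSG00000016763, chromosome 15, 83604999 to 83725021, GRCm38 as all coordinates here), which encodes a secreted and cell-surface protein with EGF-like repeats. It stood at 5.66, 2.24, 4.53 and 2.79 CPM in control libraries and 0.431, 0.471, 0.0986 and 0.304 CPM in stress libraries. Every control value was above every stress value. The means were 3.37 ± 1.51 (SD, n = 3) and 0.326 ± 0.168 (SD, n = 4), the log2 fold change was -3.55 ± 0.50 (SE), and edgeR's unadjusted p was 6.7e-05, or -3.36 ± 0.53 and 2.50e-04 with the pair as 1 library.

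Sorcs2 (ENSMUSG00000029093, chromosome 5, 36017180 to 36398139), a sorting receptor that binds neurotrophin precursors, had 12.1, 11.7, 11.5 and 8.85 CPM in control and 6.17, 5.84, 3.600 and 3.78 in stress. The groups did not overlap, with a log2 fold change of -1.21 ± 0.22 (edgeR p 3.60e-04; -1.15 ± 0.24 with the pair as 1). Zfp827, a zinc finger protein, had 10.2, 9.63, 9.13 and 10.8 CPM in control and 6.34, 4.99, 2.56 and 3.91 in stress, for -1.18 ± 0.25 (edgeR p 0.0012). Wnt4 (ENSMUSG00000036856, chromosome 4, 137277489 to 137299726), a Wnt ligand, had 13.9, 8.33, 13.7 and 6.19 CPM in control and 4.14, 3.53, 1.78 and 2.65 in stress. Its controls 1 and 3 were the high ones, yet control 2 and 4 also lay above all stress libraries, and the log2 fold change was -1.83 ± 0.35, or -1.65 ± 0.37 with the pair as 1 library.

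Several lower genes encode surface proteins. Itga2, the alpha subunit of a collagen-binding integrin, had 21.3, 16.5, 25.5 and 23.8 CPM in control and 15.99, 13.3, 9.77 and 10.1 in stress, where the lowest control and the highest stress library nearly met. Slc15a2, a peptide transporter, had 14.7, 23.2, 13.98 and 18.8 CPM in control and 12.4, 12.4, 12.2 and 9.204 in stress, the first 3 stress libraries being almost equal. Gabrb2, a subunit of the GABA-A receptor, lay at 1.63 to 6.45 CPM in control and 0.789 to 1.46 in stress. Kcnk1, a potassium leak channel, was at 25.9, 0.702, 24.1 and 0.531 CPM in control and 0.431, 0.0942, 0.148 and 0.217 in stress. Its log2 fold change of -5.84 ± 1.44 therefore rested on controls 1 and 3, the libraries with high urothelial markers.

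Among intracellular regulators, Rarg, the gamma retinoic acid receptor, had 69.7, 81.9, 66.8 and 76.5 CPM in control and 61.4, 61.01, 46.6 and 51.3 in stress. The groups did not overlap, although the difference was small (-0.43 ± 0.11 on the log2 scale, edgeR p 0.0028). Ralgps2, an exchange factor for the GTPase Ral, had 15.5, 10.8, 11.5 and 19.6 CPM in control and 9.79, 5.84, 5.03 and 6.64 in stress. Col6a4, a collagen VI chain, was the 1 ranked lower gene with overlapping groups, at 5.496, 85.4, 5.71 and 30.9 CPM in control and 6.47, 2.54, 4.59 and 3.21 in stress, where only control 2 and 4 were high.

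Immunoglobulin segments formed a visible share of the lower genes. Igkv10-96, a kappa light chain variable segment, had 11.7, 19.1, 10.5 and 3.18 CPM in control and 0.819, 0.0471, 0.296 and 0.478 in stress. Igkv5-39 had 9.84, 4.396, 10.2 and 26.1 CPM in control and 1.29, 0.3295, 0.0986 and 1.04 in stress, and Ighv9-3, a heavy chain variable segment, 9.64, 2.198, 8.23 and 12.3 CPM in control and 2.11, 0, 0.0493 and 0 in stress. Ighg2c, the constant region of IgG2c, had 13.2, 1.82, 11.1 and 95.8 CPM in control and 1.72, 0.518, 0 and 0.304 in stress, so control 4 alone held most of its signal. In all, 12 of 83 immunoglobulin segments tested had non-overlapping lower values under stress and 0 had higher ones, against 1.39% and 1.22% of all genes. Reads of such similar segments can be shared between copies, so single segments are uncertain.

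B cell markers also lay lower. Ms4a1, the surface protein CD20, had 25.4, 10.4, 27.5 and 17.7 CPM in control and 8.84, 1.93, 2.42 and 7.25 in stress, without overlap, and Fcrla, a B cell Fc receptor-like protein, 7.57, 2.95, 7.95 and 5.35 CPM in control and 2.93, 0.141, 1.48 and 2.08 in stress. All 14 markers of the list lay lower, with a median log2 fold change of -1.14 (-1.20 with the pair as 1, -1.40 without stress libraries 3 and 4). Its summed level was 927, 435, 875 and 751 CPM in control and 658, 154, 296 and 408 in stress, so stress library 1 reached the control range. Of 10 plasma cell markers 7 lay lower, with a median of -0.80 (-0.71 with the pair as 1, -0.59 without stress libraries 3 and 4). Irf4, a transcription factor of plasma cells and other leukocytes, Jchain, which joins immunoglobulin chains, and Tnfrsf17, a survival receptor, lay lower at an unadjusted edgeR p of 0.013, 0.029 and 0.045, or 0.038, 0.071 and 0.11 with the pair as 1. Jchain had 44.3, 21.4, 40.6 and 36.9 CPM in control and 32.7, 7.67, 12.2 and 12.98 in stress, where library 1 reached the control range. Tnfrsf17 rested on few counts, at 1.19, 0.561, 1.18 and 0.663 CPM in control and 0.819, 0.235, 0.197 and 0.130 in stress. Its groups overlapped too. The summed level of the list overlapped, at 449, 274, 432 and 357 CPM in control and 316, 278, 413 and 407 in stress.

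The genes that lay higher under stress had smaller differences. Hhipl1 (ENSMUSG00000021260, chromosome 12, 108306270 to 108330869), a secreted relative of the Hedgehog-binding protein Hhip, had 22.4, 32.4, 21.3 and 28.9 CPM in control and 37.2, 55.3, 44.2 and 46.2 in stress. No stress library fell to the control range, and the means of 27.7 ± 5.34 (SD, n = 3) and 45.7 ± 7.48 (SD, n = 4) gave a log2 fold change of 0.79 ± 0.16 (edgeR p 9.95e-04; 0.74 ± 0.18 with the pair as 1). Far2, a fatty acyl-CoA reductase that makes fatty alcohols, had 1.55, 1.403, 1.39 and 1.68 CPM in control and 3.06, 3.15, 3.01 and 3.52 in stress, for 1.07 ± 0.23, with little spread in either group. Muc6, a gel-forming mucin, had 3.03, 3.32, 4.08 and 3.58 CPM in control and 7.03, 8.24, 7.94 and 4.65 in stress.

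Transport and RNA-binding genes were next. Slc6a8, the creatine transporter, had 86.4, 95.3, 85.2 and 83.7 CPM in control and 105, 162, 127 and 122 in stress. Igf2bp2, an RNA-binding protein named for its Igf2 messenger target, had 20.4, 22.3, 19.2 and 22.8 CPM in control and 26.4, 34.6, 39.6 and 41.4 in stress, for 0.75 ± 0.17 (edgeR p 0.002). In both the 4 control values were tightly grouped and all stress values were above them. Htr2b, a serotonin receptor, was low throughout at 1.47, 1.08, 0.734 and 1.11 CPM in control and 2.199, 2.401, 2.86 and 4.38 in stress, as was Lrrc39, a leucine-rich repeat protein, at 1.23, 1.59, 0.938 and 1.02 CPM in control and 2.63, 2.45, 2.81 and 4.298 in stress.

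Matrix and lysosome genes included Ctsk, the collagen-degrading cathepsin K, at 168, 236, 161 and 207 CPM in control and 241, 378, 299 and 335 in stress. Stress library 1 lay only just above control 2. Col27a1, a fibrillar collagen, had 35.4, 62.9, 35.6 and 49.98 CPM in control and 72.6, 92.1, 72.3 and 68.1 in stress, and Lbp, the lipopolysaccharide-binding protein, 110.3, 122, 109 and 133 CPM in control and 149, 261, 195 and 153 in stress. Retsat, a retinol saturase linked to adipocyte differentiation, had 26.5, 37.3, 32.1 and 33.3 CPM in control and 38.8, 56.2, 52.6 and 50.1 in stress. The remaining ranked higher genes were March3, a ubiquitin ligase, Polg2, a subunit of the mitochondrial DNA polymerase, Fibp, an intracellular FGF-binding protein, and Afmid, an enzyme of tryptophan breakdown, with log2 fold changes of 0.65 ± 0.16, 0.72 ± 0.19, 0.42 ± 0.12 and 1.07 ± 0.28.

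By size of fold among non-overlapping genes with at least 5 CPM in the higher group, the first on the higher side were Fbln7, a fibulin of the matrix, Arhgap22, a GTPase-activating protein, Pcdhgc5, a clustered protocadherin, Muc6 and the long noncoding RNA Gm42047. Fbln7 had 20.6, 25.1, 17.5 and 25.5 CPM in control and 37.9, 84.9, 28.8 and 42.1 in stress, with stress library 2 far above the rest. Arhgap22 had 4.06, 4.07, 3.87 and 3.54 CPM in control and 4.91, 6.36, 8.93 and 11.98 in stress. Gm42047 had 42.1, 66.8, 41.9 and 50.2 CPM in control and 118, 92.3, 84.6 and 92.2 in stress, all stress values above all controls. Pcdhgc5 shares exons with its cluster and is uncertain. Non-overlapping differences of at least 2-fold numbered 32 higher and 94 lower.

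**Figure D3:**
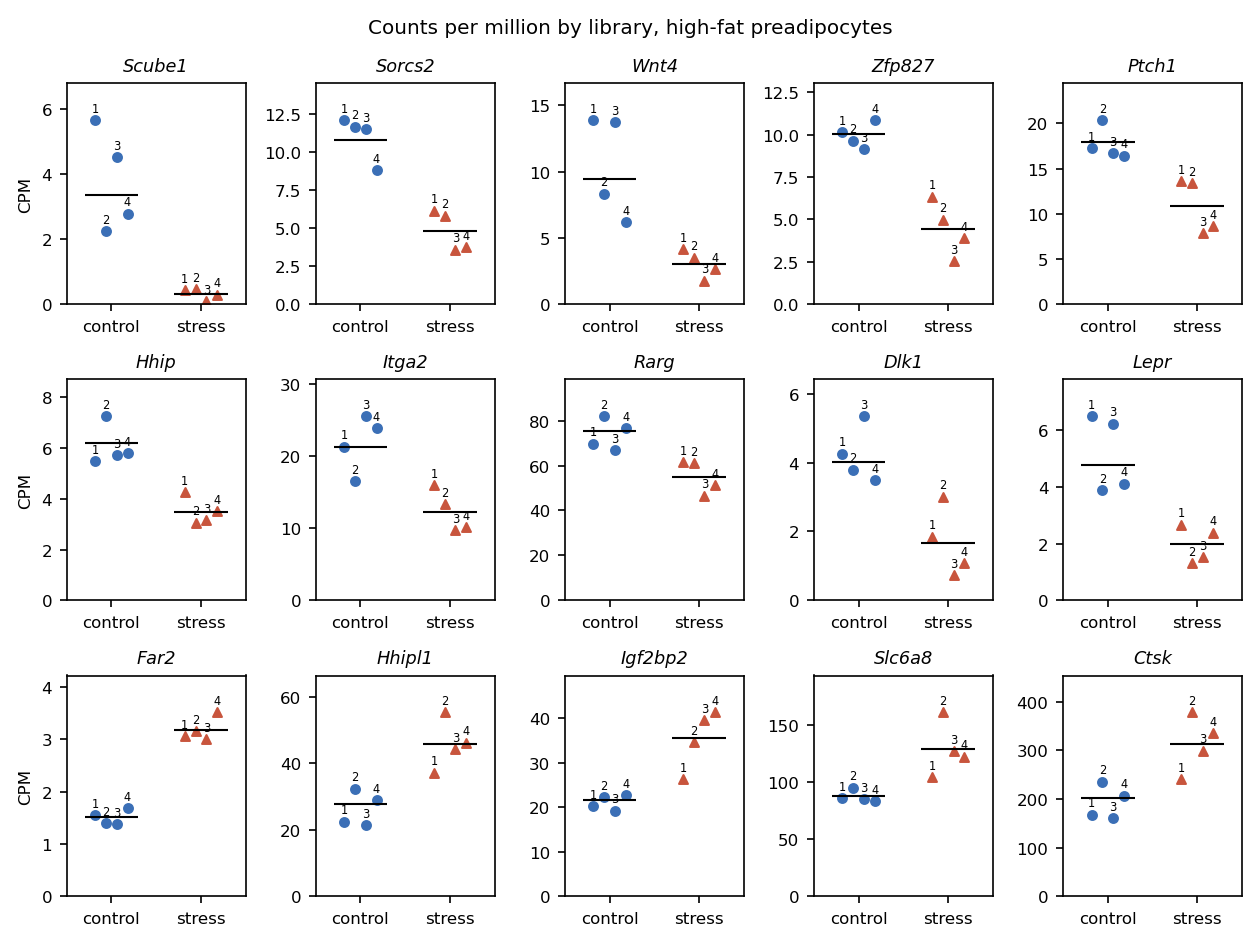
CPM (y axes from 0, scales differ) of 15 genes by group, 1 numbered point per library, with the mean as a bar (control 1 and 3 averaged first). In all 15 panels the control and stress values do not overlap, and for Lepr, Wnt4, Scube1 and Dlk1 controls 1 and 3 are the highest points.

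DESeq2, another count test, called 27 of the same 16810 genes (0.161%) at an adjusted p of 0.05, 22 lower and 5 higher. With the pair as 1 library it called 4, of which 3 were among the 27: Scube1 (DESeq2 adjusted p 3.0e-05), Igkv10-96 (3.0e-05) and Igkv5-39 (9.27e-04). The fourth was Col6a4 (0.033), whose groups overlapped. For 6 of the 27, Upk1a and Kcnk1 with their high controls 1 and 3 among them, DESeq2 gave no adjusted p with the pair as 1. The other 18 missed the threshold there, including Wnt4, Zfp827, Sorcs2, Hhipl1, Muc6, Far2 and Lrrc39. One of them, Lepr (ENSMUSG00000057722, chromosome 4, 101717404 to 101815352), the leptin receptor, was chosen for mention after its values were seen. It had 6.49, 3.88, 6.24 and 4.11 CPM in control and 2.67, 1.32, 1.53 and 2.39 in stress. The groups did not overlap, but DESeq2's adjusted p went from 0.048 to 0.64 with the pair as 1.

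Progenitor identity was compared through 5 lists. From here on, a bare value in parentheses after a list median is that median without stress libraries 3 and 4. Adipocyte progenitor markers such as Pdgfra, Cd34 and Ly6a gave 12 of 19 higher and a median log2 fold change of 0.08 (-0.04 with the pair as 1, 0.25 without stress libraries 3 and 4 and -0.25 without controls 1 and 3). Interstitial progenitor markers (Dpp4, Pi16) had a median of -0.13 (0.22), committed preadipocyte markers (Icam1, Dlk1) -0.01 (0.15), fibro-inflammatory markers -0.03 (0.09) and adipogenesis-regulatory markers (F3) -0.15 (0.25). The all-gene median was 0.01, and all 5 medians were positive without stress libraries 3 and 4. Pdgfra, the PDGF receptor of progenitors, had 372, 709.7, 370.0 and 821 CPM in control and 599, 789, 595 and 469 in stress, with the lowest values in controls 1 and 3. Dpp4, a surface peptidase of interstitial progenitors, had 209, 328, 216 and 222 CPM in control and 242, 328, 131 and 119 in stress, and Cd34 554, 917, 527 and 926 CPM in control and 656, 931, 428 and 419 in stress, both lowest in stress 3 and 4. Icam1, an adhesion molecule of committed preadipocytes, had 489, 609, 489.8 and 439 CPM in control and 767, 805, 604 and 277 in stress, and F3, tissue factor, 109, 236, 101 and 75.1 CPM in control and 181, 174, 66.6 and 59.95 in stress. None of these 5 genes separated the groups.

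Within those lists, Dlk1 and Cd24a had non-overlapping lower values. Dlk1 (ENSMUSG00000040856, chromosome 12, 109452823 to 109463336), which restrains adipogenesis, had 4.26, 3.79, 5.34 and 3.49 CPM in control and 1.85, 3.01, 0.7398 and 1.09 in stress, for a log2 fold change of -1.38 ± 0.41 (edgeR p 0.0082; 0.021 with the pair as 1). Controls 1 and 3 were its highest values, and stress 2 came nearest to the controls. Cd24a, a surface protein of early progenitors also made by epithelium and B cells, had 51.8, 23.4, 55.4 and 21.98 CPM in control and 20.7, 4.896, 12.1 and 19.5 in stress, highest in controls 1 and 3.

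Adipogenic control was described by repressors and transcription factors. Of 14 repressors tested, 11 lay lower, the median was -0.22 (-0.25 with the pair as 1, 0.04 without stress 3 and 4), and 5 had an unadjusted p below 0.05 on the lower side, where the all-gene share was 4.09%, or 3 with the pair as 1, where it was 1.86%. Klf3, a repressor of the KLF family, had 124, 129.8, 119 and 136 CPM in control and 113, 115, 80.05 and 90.8 in stress, without overlap. Foxo1, an insulin-restrained transcription factor, had 50.3, 61.3, 50.7 and 87.04 CPM in control and 52.4, 53.3, 29.3 and 30.2 in stress, low in stress 3 and 4 only. The 17 adipogenic transcription factors had a median of -0.06 (0.03). Pparg, the master regulator, stood at 56.3, 30.3, 54.6 and 31.4 CPM in control and 31.8, 33.4, 42.6 and 52.4 in stress, and Cebpa, its partner, at 78.9, 57.7, 78.6 and 79.7 CPM in control and 77.6, 67.6, 112 and 126 in stress, both overlapping. Klf5 was high in controls 1 and 3 at 55.1, 11.97, 56.01 and 2.17 CPM, against 11.2, 8.76, 1.92 and 4.08 in stress.

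Hedgehog and Notch genes lay lower for 18 of 21, with a median of -0.24 (-0.28 with the pair as 1). Without stress libraries 3 and 4 the median was 0.00. Ptch1 (ENSMUSG00000021466, chromosome 13, 63508328 to 63573598), the Hedgehog receptor and a target of the pathway, had 17.2, 20.3, 16.7 and 16.5 CPM in control and 13.6, 13.4, 7.89 and 8.68 in stress. Hhip (ENSMUSG00000064325, chromosome 8, 79965851 to 80058006), which binds Hedgehog ligands and is also a target, had 5.496, 7.25, 5.71 and 5.79 CPM in control and 4.27, 3.06, 3.16 and 3.52 in stress. In both, stress 1 and 2 also lay below every control, and the log2 fold changes were -0.72 ± 0.18 and -0.80 ± 0.20 (edgeR p 0.0036 for each). Both genes were named for their rank or their separated groups, so no support is read from this. Hey1, a Notch target, had 8.36, 5.99, 6.85 and 6.68 CPM in control and 5.35, 4.896, 1.87 and 3.56 in stress without overlap. Gli1, the transcription factor that Hedgehog signals induce, was looked at after these values were seen; it had 12.7, 13.6, 8.44 and 11.9 CPM in control and 9.61, 11.3, 3.600 and 2.17 in stress, where stress 1 and 2 overlapped the controls.

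Wnt ligands, receptors and antagonists lay lower for 23 of 31, with a median of -0.29 (-0.36 with the pair as 1, 0.00 without stress 3 and 4). Beside Wnt4, described above, Tcf7, a transcription factor of the pathway also made by T cells, had 5.26, 6.27, 5.79 and 6.15 CPM in control and 5.001, 1.27, 1.53 and 2.78 in stress. TGF-beta and BMP genes had a median of -0.18 (0.05) with 25 of 34 lower. In that list Id1, a BMP target, had 67.3, 28.1, 59.3 and 17.4 CPM in control and 22.4, 23.4, 9.52 and 8.34 in stress, and Ltbp2, a latent TGF-beta binding protein family member, 7.93, 22.1, 7.79 and 8.67 CPM in control and 15.7, 25.6, 30.1 and 26.2 in stress, both overlapping.

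PDGF and FGF signalling had a median of 0.08 (0.10), with Fgfr2, an FGF receptor, at 19.95, 17.6, 16.9 and 9.69 CPM in control and 9.01, 9.604, 5.13 and 8.64 in stress. Its gap between control 4 and stress 2 was small and closed under size-factor scaling. Dusp6, a phosphatase induced by FGF and MAPK signals, had 76.5, 39.99, 73.2 and 42.7 CPM in control and 38.7, 19.1, 33.8 and 34.1 in stress. Axon guidance genes had a median of -0.22 (-0.06), adrenergic and neurotrophic genes -0.19 (0.17), and insulin and IGF signalling -0.07 (0.05). Igfbp2, an IGF-binding protein, was at 78.7, 4.21, 76.8 and 0.929 CPM in control, high in libraries 1 and 3, and 3.32, 2.21, 0.0986 and 0.868 in stress. Artn, a neurotrophic ligand, and Maoa, a monoamine oxidase, had log2 fold changes of -1.60 ± 0.48 and -0.19 ± 0.10.

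Corticosteroid genes addressed the hormone axis that early life stress is known for. The list gave 11 higher and 9 lower of 20, with a median of 0.05 (0.12). The glucocorticoid receptor Nr3c1 had 166, 192, 165 and 199 CPM in control and 192, 179.6, 155 and 158 in stress, for a log2 fold change of -0.09 ± 0.10. The mineralocorticoid receptor Nr3c2 had 12.7, 13.4, 11.9 and 8.76 CPM in control and 12.8, 14.1, 4.69 and 6.295 in stress, and Hsd11b1, which regenerates active glucocorticoid, 76.6, 79.6, 71.3 and 46.3 CPM in control and 98.4, 101, 32.3 and 26.3 in stress, both lowest in stress 3 and 4. The glucocorticoid-induced chaperone Fkbp5 had 35.1, 22.9, 34.4 and 56.3 CPM in control and 40.3, 49.6, 104 and 90.6 in stress; stress 3 and 4 lay above every control, stress 1 and 2 within their range, and the log2 fold change was 0.95 ± 0.38 (edgeR p 0.036; 0.068 with the pair as 1). Another such target, Tsc22d3, overlapped at 101, 57.8, 92.1 and 146 CPM in control and 107, 127, 133 and 162 in stress.

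The renin-angiotensin list had 8 of 11 higher and a median of 0.30 (0.15 without stress 3 and 4). Agt, the angiotensinogen precursor, was low at 2.31, 5.19, 1.63 and 10.9 CPM in control and 4.27, 5.04, 4.44 and 2.65 in stress, and Ace, the converting enzyme, stood at 252, 252, 247 and 217 CPM in control and 308, 478, 236 and 197 in stress. Ctsd, a lysosomal protease on the list, had 585, 326, 575 and 555 CPM in control and 403, 444, 1624 and 1935 in stress, high in the stress libraries 3 and 4, which had high macrophage markers. Agtr2, an angiotensin receptor, had 1.83, 4.77, 0.978 and 6.06 CPM in control and 0.733, 2.54, 0.6905 and 0.868 in stress. Steroid hormone receptors and enzymes had a median of -0.19 (-0.10). Esr1, the estrogen receptor, had 46.5, 104, 49.9 and 71.2 CPM in control and 66.5, 81.3, 62.8 and 47.8 in stress, while Pgr, the progesterone receptor and an estrogen target, was high in control 4 alone at 3.903, 5.24, 3.55 and 41.97 CPM. Hsd17b11, a dehydrogenase of the list, had 96.4, 101, 95.7 and 94.1 CPM in control and 78.7, 86.8, 87.8 and 88.1 in stress, a non-overlapping difference of -0.19 ± 0.10 on the log2 scale.

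Collagens gave 18 of 28 higher and a median of 0.12 (0.02 with the pair as 1 and -0.30 without controls 1 and 3), so the direction turned without those libraries. Summed collagen CPM was 21195, 50662, 20962 and 52176 in control and 31801, 42927, 51678 and 51486 in stress, lowest in controls 1 and 3. Matrix remodelling genes had a median of 0.02 (0.12). Within them Mmp3, the stromelysin protease, had 91.5, 183, 90.1 and 99.4 CPM in control and 133, 241, 320.4 and 397 in stress, and Timp1, a protease inhibitor, 41.3, 64.7, 41.6 and 34.4 CPM in control and 50.3, 72.7, 214 and 131 in stress, both highest in stress 3 and 4. The basement membrane chain Col4a6 had 24.4, 25.5, 24.01 and 11.5 CPM in control and 12.6, 12.2, 2.42 and 3.04 in stress, lowest in the same libraries.

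Macrophage, cell cycle and lysosomal lists had positive medians that changed sign without stress libraries 3 and 4. Lipid-associated macrophage genes lay higher for 16 of 16, median 0.89 (1.05 with the pair as 1), which became -0.23 without those libraries. Macrophage markers lay higher for 19 of 20, median 0.60, against -0.67 without them. Cell cycle genes lay higher for 28 of 29, median 0.82, against -0.47, and lysosomal genes for 25 of 26, median 0.47, against -0.14. Cdk1, the mitotic kinase, had 4.98, 4.44, 4.73 and 7.08 CPM in control and 4.83, 3.95, 19.2 and 23.3 in stress. Cd63, a tetraspanin of the lipid-associated list, was its non-overlapping member at 300.0, 375, 310.4 and 319.7 CPM in control and 375, 450.1, 491 and 459.8 in stress, the lowest stress value standing at the highest control value, and overlapped under size-factor scaling.

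Inflammatory genes as a list had a median of -0.02 (0.09). Serpina3n, an acute phase protease inhibitor, had 95.5, 145, 95.1 and 155 CPM in control and 121, 172, 671 and 632 in stress, again high in libraries 3 and 4, and Socs3, a cytokine feedback inhibitor, 807, 1129, 790.3 and 892 CPM in control and 837, 521, 623 and 399 in stress. Interferon response genes lay higher for 20 of 24 with a median of 0.20 (0.17), chemokines and receptors had 0.08 (0.11) and complement 0.11 (-0.08). Tissue-resident macrophage genes had a median of -0.20 (-0.94), MHC class II and dendritic markers -0.26 (-0.86), T and NK markers -0.48 (-0.30), neutrophil markers 0.53 (-0.38) and mast cell and eosinophil markers -0.19 (-1.22). The neutrophil median turned without stress 3 and 4. Without controls 1 and 3 the medians were 0.31 for resident macrophages, 0.21 for MHC class II, -0.10 for T and NK cells, 0.38 for neutrophils and 0.29 for mast cells and eosinophils. The T and NK median was -1.38 without stress library 1, so its size rested on which libraries entered.

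Vascular and lining cell lists had negative medians with all 8 libraries. Endothelial markers lay lower for 16 of 16, median -1.41, or -1.16 with the pair as 1 and -0.43 without controls 1 and 3. Pecam1, the endothelial adhesion molecule, had 161, 48.5, 145 and 65.9 CPM in control and 58.1, 19.9, 35.9 and 43.1 in stress. Urothelial and epithelial markers lay lower for 11 of 11 at -4.09, and at 0.12 without those controls. Mesothelial markers had -1.08, or -0.19 without stress 3 and 4. Mural cells had -0.43 (0.15), lymphatic endothelium -0.31 (-0.06), erythroid cells -0.70 (-0.38), Schwann cells -0.09 (0.37), skeletal muscle 0.48 (1.18) and ovary and reproductive tract -0.36 (-0.51). Hypoxia and angiogenic factors had -0.24 (-0.13).

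Metabolic lists had medians from -0.32 for mitochondrial genome transcripts, the lowest of the 33 pathway lists, to 0.27 for cholesterol synthesis. Cholesterol synthesis lay higher for 15 of 19 with a median of 0.27 (0.01 without stress 3 and 4), and Mvk, mevalonate kinase, had 8.72, 9.07, 8.32 and 7.83 CPM in control and 9.66, 10.2, 11.5 and 11.5 in stress without overlap. The sterol reductase Tm7sf2 had 3.35, 2.76, 3.51 and 2.65 CPM in control and 4.05, 4.94, 4.39 and 4.602 in stress, also without overlap, and both gaps were narrow. In that list 3 of 19 genes had non-overlapping higher values, against 1.22% of all genes, and the difference was not tested. De novo lipogenesis had a median of -0.08 (0.02), with Elovl5, a fatty acid elongase, at 101, 91.1, 98.5 and 89.4 CPM in control and 84.7, 63.9, 67.4 and 73.1 in stress without overlap. Acacb, an acetyl-CoA carboxylase, had 7.61, 10.01, 7.705 and 13.98 CPM in control and 6.94, 7.49, 6.31 and 3.47 in stress, a gap that closed under size-factor scaling.

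Triglyceride genes had a median of 0.03 (-0.16) and mature adipocyte markers -0.16 (0.53). Leptin, Lep, had 30.8, 35.5, 30.6 and 6.63 CPM in control and 54.6, 72.4, 4.73 and 4.17 in stress, and Adipoq 25.5, 28.95, 25.4 and 20.5 CPM in control and 47.2, 41.3, 4.19 and 1.04 in stress; both adipocyte hormones were highest in stress 1 and 2 and lowest in stress 3 and 4. Oxidative phosphorylation genes of the nucleus lay higher for 23 of 30 at a median of only 0.07 (-0.06). Mitochondrial genome transcripts lay lower for 12 of 12, median -0.32, or -0.04 without stress 3 and 4, whose mitochondrial share of counts, 1.35% and 1.45%, was the lowest of the 8 libraries.

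Cell stress and chromatin lists completed the comparison. Immediate early and heat shock genes, which tissue digestion is known to induce, lay lower for 21 of 22 with a median of -0.28 (-0.12 without stress 3 and 4). The cochaperone Dnajb1 had 272, 265, 247 and 249 CPM in control and 244, 174, 136 and 187 in stress, and Ier2, an immediate early gene, 243, 217, 239 and 251 CPM in control and 207, 173, 207 and 156 in stress, both without overlap but with stress 1 just under the controls. The unfolded protein list had a median of 0.11 (0.07), oxidative stress defence -0.05 (-0.06), senescence and p53 targets -0.03 (0.06), the circadian clock 0.08 (0.08), imprinted genes -0.05 (0.25) and DNA methylation and histone modifiers -0.03 (-0.05). Dnmt3a, a DNA methyltransferase, had 86.9, 64.8, 81.00 and 96.5 CPM in control and 78.5, 74.1, 147 and 203 in stress, and Dnmt1 34.7, 33.02, 35.6 and 45.7 CPM in control and 39.8, 30.4, 67.7 and 74.4 in stress, both higher in stress 3 and 4 only.

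Of the 33 pathway lists, 30 had medians within 0.3 of 0 on the log2 scale. Some lay close to that line, such as renin-angiotensin at 0.2998 and Wnt at -0.293, so the count depends on it. The plot of list medians shows all lists. In it the medians with the pair as 1 library kept the sign of the 8-library median in 53 of 57 lists, and those without stress libraries 3 and 4 in 31 of 57.

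**Figure D4:**
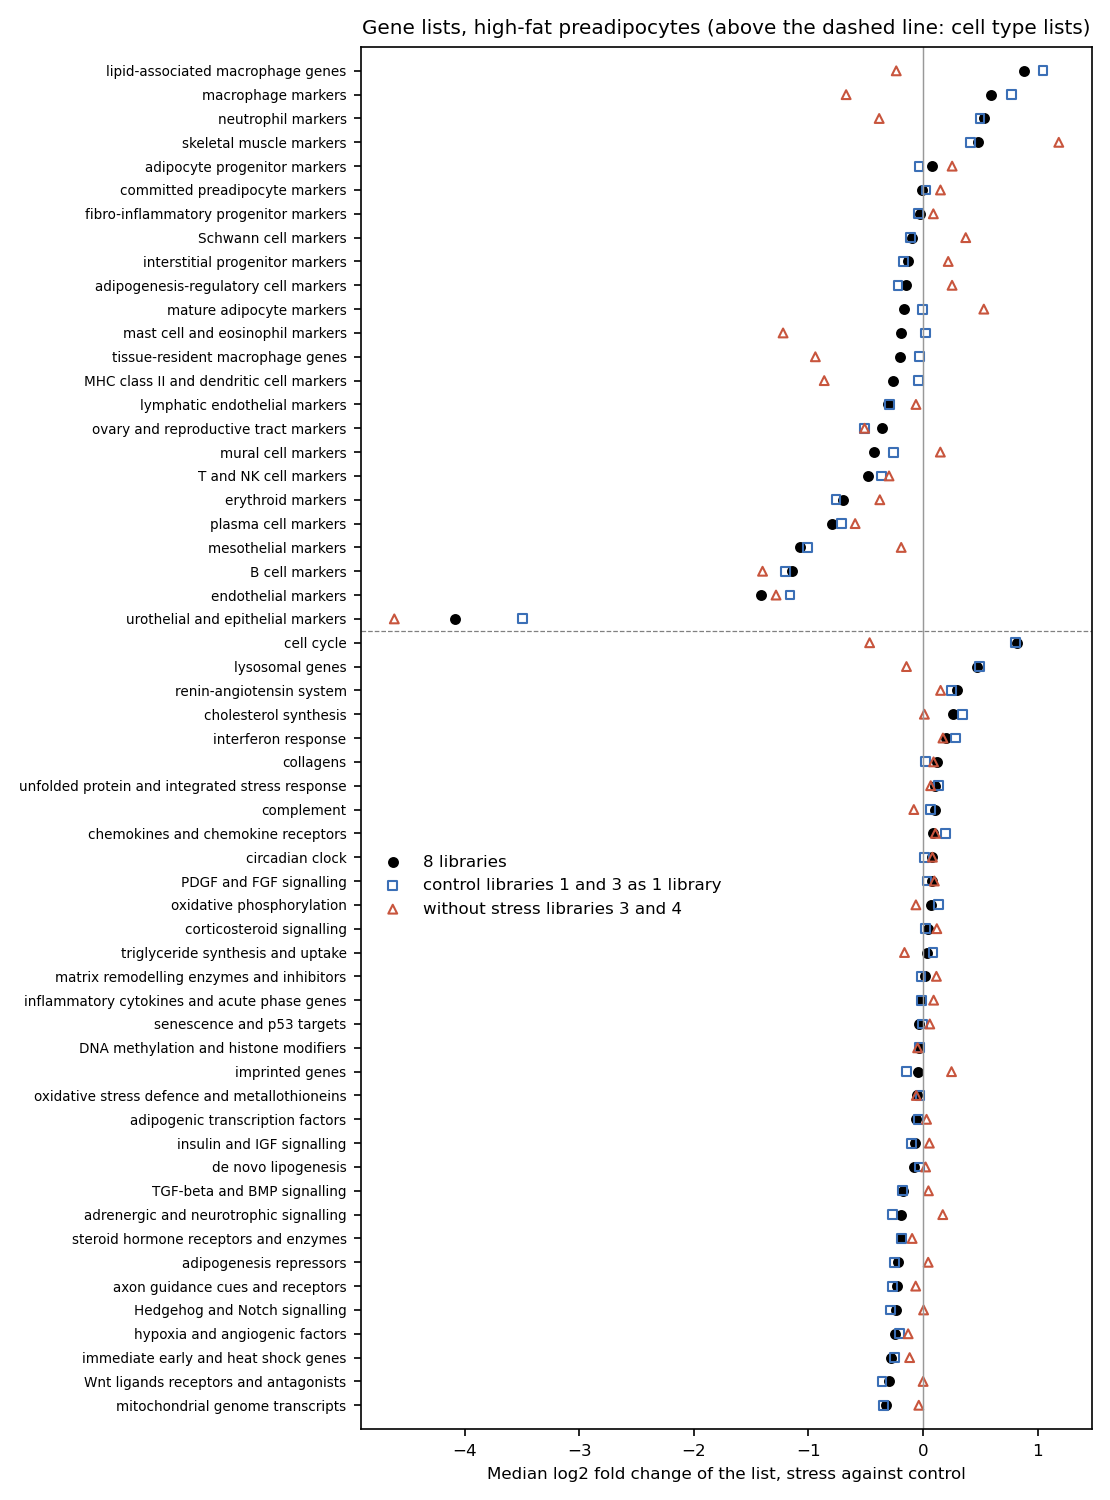
Median log2 fold change, stress against control (x axis), of 57 gene lists with all 8 libraries (filled circles), with control 1 and 3 as 1 library (squares) and without stress libraries 3 and 4 (triangles). Squares lie near the circles, while triangles move to the other side of 0 for macrophage, lipid-associated macrophage, cell cycle and lysosomal genes.

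The same contrast in mature adipocytes shares no library with that in preadipocytes. The labels do not say whether both fractions came from the same mice, so the contrasts may not be independent. There 0 of 18194 genes (0%) passed an adjusted p of 0.05 in edgeR, and 1798 (9.88%) had an unadjusted p below 0.05. The difference between the stress effects of the fractions, tested as an interaction, was called for 0 genes (0%), with 1223 (6.72%) at an unadjusted p below 0.05. DESeq2 called 42 genes in adipocytes and 25 for the difference between fractions. Without control adipocyte library 2, edgeR called 233 and 3. Of the 15 ranked higher genes 4 had the same sign in adipocytes, and of the 15 lower genes 6 did. At an unadjusted p below 0.05 in adipocytes, the lower genes held 4, Sorcs2 and Itga2 with the same sign and Igkv10-96 and Gabrb2 with the opposite one. On the higher side there were 2, Col27a1 with the same sign and Lbp with the opposite one.

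Sorcs2 had 2.84, 0.666 and 1.46 CPM in control adipocytes 1 to 3 and 0.505, 0.319 and 0.907 in stress adipocytes, for a log2 fold change of -1.51 ± 0.53 (edgeR p 0.012). Itga2 had 1.17, 1.83 and 2.84 CPM in control and 0.758, 0.0637 and 1.36 in stress, for -1.37 ± 0.58, and Col27a1 1.95, 4.99 and 2.06 CPM in control and 2.98, 10.5 and 10.5 in stress, for 1.40 ± 0.45. Lbp went the other way, at 481, 215 and 623 CPM in control and 253, 53.99 and 143 in stress adipocytes (-1.56 ± 0.46, unadjusted interaction p 0.002 in edgeR). In adipocytes the groups of Sorcs2, Itga2, Col27a1 and Lbp all overlapped. Igkv10-96 had 0, 0 and 0 CPM in control and 0.0505, 0.0637 and 0.453 in stress adipocytes, and Gabrb2 0, 0 and 0 CPM in control and 0, 0.255 and 0.101 in stress. With every control at 0 and few counts under stress, no fold is quoted for these genes. Their points in the plot of the ranked genes, and their opposite signs counted above, rest on those few counts. For Scube1 the adipocyte value was 0.09 ± 0.89, for Wnt4 -0.90 ± 0.54, for Ptch1 0.45 ± 0.31 and for Hhipl1 -0.54 ± 0.44. Across 16810 genes the log2 fold changes of the fractions had the same sign in 49.1%.

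**Figure D5:**
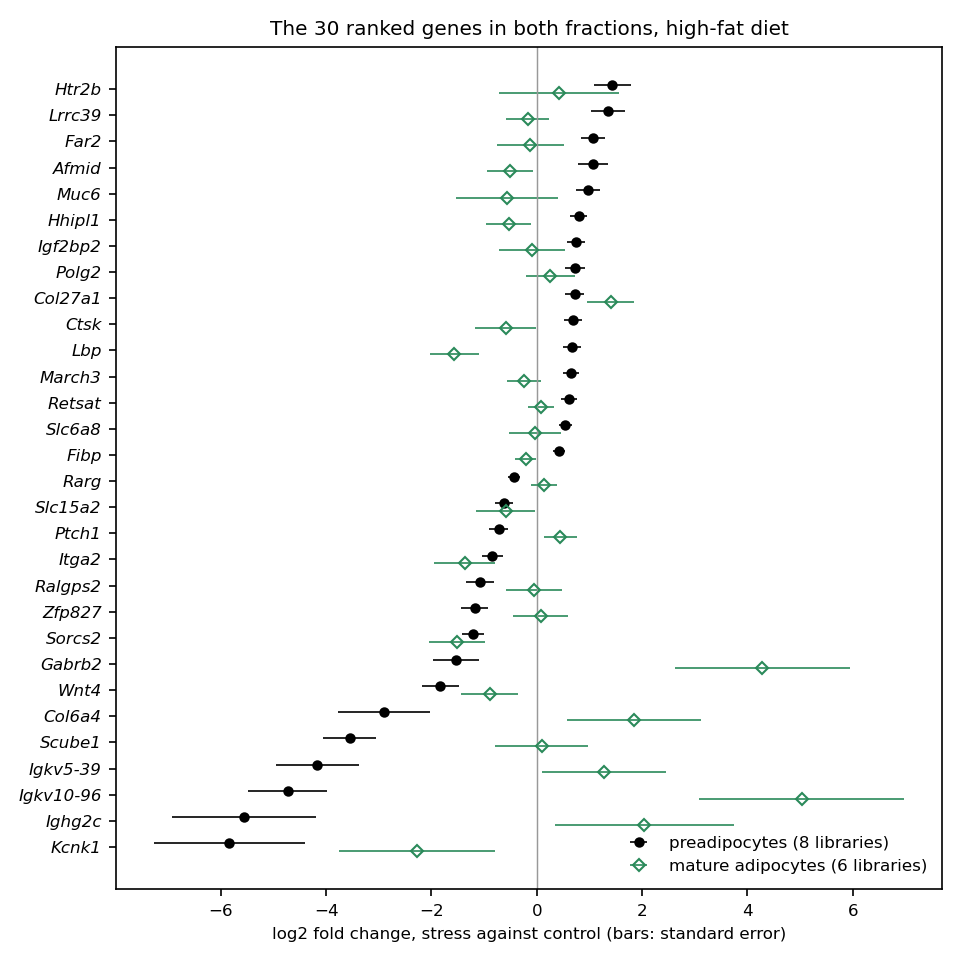
Log2 fold change, stress against control (x axis), with its standard error, for the 30 ranked genes in preadipocytes (filled circles, 8 libraries) and mature adipocytes (open diamonds, 6 libraries). Preadipocyte values lie away from 0 because they chose the genes, and adipocyte values scatter on both sides with wider bars. The adipocyte points of Igkv10-96 and Gabrb2 rest on few counts, with every control at 0.

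On a low-fat diet there was 1 preadipocyte library per group, so no test was possible. Scube1 was at 1.905 CPM in control and 2.98 in stress, Wnt4 at 8.24 and 11.4, Sorcs2 at 8.12 and 10.7, Ptch1 at 22.5 and 25.9 and Lepr at 3.52 and 8.75. Each of these stress values was above the control value, unlike in the high-fat libraries. Hhipl1 was at 28.9 and 23.04 CPM and Igf2bp2 at 18.8 and 14.02, both lower in the stress library. Other genes kept the high-fat direction. Igkv5-39 was at 24.3 CPM in control and 0.779 in stress, Itga2 at 23.02 and 20.4 and Muc6 at 2.61 and 5.22. Among the ranked genes the low-fat stress library was the higher one for 6 of the 15 higher and 9 of the 15 lower genes.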

How the data were processed

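Counts per gene were deposited as 1 table of 16 libraries with 54532 Ensembl genes, and the authors' FPKM values as another; per the submitters' processing notes, the build was GRCm38 (mm10) and the tools were STAR 2.6.1d, DESeq2 1.20.0 and edgeR 3.24.3. Which program counted reads, with what strand setting and gene annotation, is not given in the sources used here, so antisense and overlapping genes are uncertain. Per the labels' protocols, reads were paired-end Illumina.

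Counts were tested in R 4.3.3 with edgeR 4.0.16 (TMM scaling, filterByExpr, robust quasi-likelihood F test, Benjamini-Hochberg adjustment at 0.05), with all 8 libraries and with control 1 and 3 summed; the adipocyte and interaction contrasts used 14 libraries in 1 fit. The script was tested on simulated data. Alternatives were DESeq2 1.42.0, limma 3.58.1 on log2(FPKM + 0.1), other scalings and filters, a replicate block and leaving out libraries. List scores are mean log2 CPM with a prior count of 2. A gene with 0 counts in a library could hold up to 3 counts, 0.119 to 0.148 CPM here, counting error only.

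Named genes are the 15 higher and 15 lower of smallest rank with a mean of at least 2 CPM, the 3 best ranked and the non-overlapping members of each list, the 5 largest folds each way, DESeq2 calls made both ways and 18 fixed genes. Some genes under this rule are not reported here. The members and lists were chosen with earlier results of these data known.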

Additional observations from a re-analysis of the deposited data

Results flagged for a closer look

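In 57 list scores and 53 genes examined, the gap between 1 stress library and the nearest other, as a share of the range of the 4 stress libraries, passed Dixon's 95% critical value in 4 cases; chance gives about 1 in 20 such groups. March3, the ubiquitin ligase, was apart in stress library 2 (ratio 0.8637), with 16.1, 20.1, 15.6 and 16.2 CPM in the stress libraries. Slc15a2, the peptide transporter, was low in stress library 4 (0.927), at 12.4, 12.4, 12.2 and 9.204 CPM. Ighv9-3, the heavy chain variable segment, was detected mainly in stress library 1 (0.9767), at 2.11, 0, 0.0493 and 0 CPM. The score of the ovary and reproductive tract markers was apart in stress library 3 (0.8808).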

How the results depend on the processing

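The count of 0 genes past the threshold in preadipocytes was the same in edgeR under other scalings and filters, in limma on FPKM, with all 16 libraries in the fit, with the pair as 1 library, without stress libraries 3 and 4, without control libraries 1 and 3, and without each library in turn (0 to 0). DESeq2 gave 27, and 4 with the pair as 1. With the replicate number as a block edgeR called 1 gene. The labels do not say what a replicate number marks, so the numbers were not taken as pairs. Same-numbered libraries had correlated deviations of 0.20, 0.44, -0.07 and 0.22. Controls 1 and 2 correlated best with their own number, and controls 3 and 4 with another. Being nearly alike, controls 1 and 3 could hardly match different stress libraries, so these values cannot decide whether the numbers mark pairs. Genes at an unadjusted p below 0.05 numbered 383 without controls 1 and 3, 1611 without a filter on low counts, and, without 1 library each, 494 (control 1), 511 (control 3), 1625 (control 4), 1701 (stress 1), 1645 (stress 2) and 581 (stress 3). Non-overlapping genes numbered 491 under size-factor scaling, 403 of them shared with the 439, and 585 to 1725 without 1 library each, since fewer libraries overlap less often. For the difference between fractions DESeq2 called 25 genes, and leaving out 1 library gave 0 to 3, the 3 without control adipocyte library 2. For adipocytes DESeq2 called 42, and leaving out 1 library gave 0 to 233, the 233 without that same library; the cause was not tested.

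Of 210 named genes, 39 changed sign under at least 1 of 19 alternatives, none of them past the threshold in edgeR. Without stress libraries 3 and 4 the log2 fold changes that turned were Adipoq 0.76, Cd34 0.052, Cebpa -0.083, Dpp4 0.16, F3 0.39, Esr1 0.060, Hsd11b1 0.48, Nr3c2 0.13, Stmn4 0.0080, Reln 0.42, Trem2 -0.22, Cd68 -0.38, Fcgr1 -0.45, Atp6v0d2 -0.25, Selenop -0.34, Itgax -0.013, Il7r -0.49, Ctsd -0.34, Plin2 -0.42, Birc5 -0.16, Cdk1 -0.33, Ccnb2 -0.064, Glb1 -0.15, C4b -0.024, C5ar1 -0.63, Dnmt3a -0.17, Dnmt1 -0.14, Prdx1 -0.0015, Gpx1 -0.30. Without control libraries 1 and 3 they were Pdgfra -0.30, Pparg 0.42, Hsd11b1 0.025, Upk1a 0.052, Upk2 0.67, Elf3 0.094, Nqo1 0.31. With that pair as 1 library they were Pdgfra -0.035, Pparg 0.063, or in DESeq2 Pdgfra -0.044, Pparg 0.051. In limma on FPKM they were Lep -0.33, Esr1 0.0036, Agt 0.067, and with the replicate block Lep -0.28, Agt 0.067. Leaving out each library in turn, the genes that turned ranged over Adipoq -0.78 to 0.26, Agt -0.56 to 0.42, Esr1 -0.21 to 0.18, F3 -0.41 to 0.28, Hsd11b1 -0.41 to 0.14, Inha -3.58 to 0.087, Lep -0.32 to 0.71, Pdgfra -0.036 to 0.32, Pparg -0.28 to 0.072, Reln -0.70 to 0.0084, Tnnt3 -0.079 to 0.77. Under about 1 CPM, single values rest on few counts.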

Other observations

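Outside the protein-coding genes, 12 of 412 tested transcripts of the annotation class TEC (awaiting experimental proof), or 2.91%, had non-overlapping higher values under stress, and 1 (0.243%) had lower ones. Over all genes tested these shares were 1.22% and 1.39%; the difference was not tested. The mitochondrial gene mt-Nd4l differed between the nearly alike control libraries: it had 15.01, 3.23, 3.87 and 2.96 CPM in control libraries 1 to 4 and 2.93, 2.87, 1.78 and 1.39 in the stress libraries, so control 1 alone was high.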
